A study of Mus musculus with 12 samples.

Results

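Aim2, Ifi204, Ifi209, Mndal and Zbp1 encode receptors of the innate immune system that watch for nucleic acid inside the cell, or close relatives of such receptors, and all but Zbp1 belong to the PYHIN family. They were chosen by name, with earlier results of these data known. Their signal was followed in mouse skin after an injection of RNAdjuvant. A gene counted as measured where a probe set of the array carried its symbol alone, which held for 3 of the 5 members. These were Aim2 (probe set 10351867), Ifi209 (probe set 10351873, also written Pyhin1) and Zbp1 (probe set 10490150), among 19938 named genes in all. The only probe set listed for Ifi204 was shared with Ifi211 and was not used, and Mndal was not matched to a probe set here, so neither gene has a value below.

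Most PYHIN proteins carry an N-terminal pyrin domain, which binds other pyrin domains, and most carry a C-terminal HIN domain, which grips the backbone of double-stranded DNA. AIM2, the best known of them, binds DNA in the cytosol and recruits the adaptor ASC to switch on caspase-1, which matures interleukin 1 beta and opens gasdermin D pores. ZBP1 works differently: its Z-alpha domains recognise nucleic acid in the left-handed Z form, and it passes the signal to RIPK3, MLKL and caspase-8 to cause cell death. Zbp1 and many PYHIN genes are known interferon-stimulated genes.

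Skin biopsies came from female Balb/c mice, of an age not stated in the labels. The groups were skin taken 1.5 h, 6 h and 24 h after an intradermal injection of RNAdjuvant, and skin of mice left untreated. The labels give the dose as 25 mg, a unit that could not be checked and may be wrong. RNAdjuvant is a vaccine adjuvant in which a cationic peptide complexes RNA that codes for no protein. Each of the 4 groups had 3 arrays, labelled as biological replicates 1 to 3. No mice injected with carrier alone were analysed here, so the injection and the adjuvant cannot be told apart, and all 3 comparisons with untreated skin share the same 3 untreated arrays.

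The values are log2 signals after RMA, the authors' background correction, normalization and summary of each probe set. Array medians lay between 5.53 and 5.76. The table has no detection calls, so a low value is not called absent, and the number of arrays limits the precision. The 6 measured keratinocyte markers had a mean signal of 10.97 to 11.33 across the 12 arrays. In biopsies, fewer cells of a type and less RNA per cell cannot be told apart.

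Libraries labelled 1.5 h replicate 1 and 6 h replicate 1 stood apart from the others in a gene of lymph node vessels. This gene, Glycam1, measured 11.38 and 10.88 there and between 3.87 and 4.46 on the other 10 arrays. For the members, and for PYHIN genes whose values these libraries moved most, results are also given without them. Other arrays differed in other tissue markers, as given with the marker lists below.

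At 6 h all 3 measured members were higher than in untreated skin, and at 24 h Ifi209 and Zbp1 still were. At 1.5 h limma called 0 of the 3, none with an unadjusted p under 0.05, against 2.2% of all genes called in either direction. The size of the rise differed: Ifi209 and Zbp1 rose more than 10-fold at 6 h, and Aim2 rose 1.92-fold. The adjusted p-values are from limma with Benjamini-Hochberg adjustment over all 19938 genes, and a gene is called where its adjusted p is under 0.05. Of all genes tested, 3.38% were called higher at 6 h and 2.55% at 24 h. A moderated F test over the 3 times called all 3 members, and 11.4% of all genes.

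**Figure D1:**
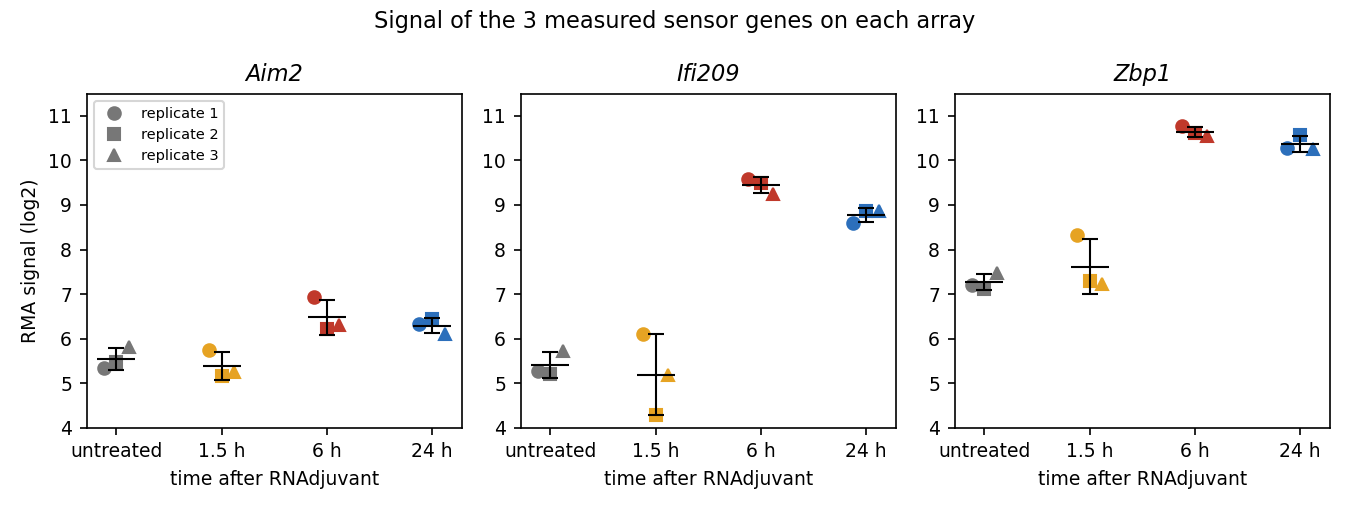
RMA signal on the log2 scale (vertical axis) of Aim2, Ifi209 and Zbp1 on each of the 12 arrays, by group; points are single arrays, with the replicate number by shape, and the bars give mean and SD of 3 arrays. All 6 h and 24 h arrays of each gene lie above its untreated arrays, and replicate 1 is the highest 1.5 h array of each gene.

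Besides Aim2 and Ifi209, 8 other PYHIN genes of the cluster on chromosome 1 had a probe set of their own, and their values follow those of the members. Of these 10 genes and Zbp1, 11 in all, 10 had a promoter sequence in RefSeq on build GRCm38.p6. That genome is of C57BL/6J, not of the Balb/c mice used here, and the PYHIN cluster is known to differ between strains. In the 250 bases before the start, 7 of the 10 genes held the core of an interferon-stimulated response element, spelled here as GAAA, any 2 bases and GAAA, and searched on both strands. Of all 32851 mouse promoters searched for it, 2.98% held it. That share counts each promoter by itself, while a gene above counted if any of its start sites held the core. Several of these promoters are close copies: that of Ifi208 was 87.9% identical to that of Ifi213 and 86.2% to that of Ifi206. The 7 genes were Ifi203, Ifi205, Ifi206, Ifi207, Ifi208, Ifi213 and Ifi214, and all but Ifi205 held the same 10 letters, GAAATCGAAA (Ifi203 before the second of its start sites). The gamma-activated site TTCNNNGAA was found for Ifi202b alone, and in 7.02% of all promoters, with no overlap between the motifs. A match describes letters and is no evidence of binding.

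The last 120 bases before the start are shown for Ifi209 and Ifi214, whose promoters are closely alike, for Ifi206, another holder of the core, and for Aim2, which had the smallest rise at 6 h. Capitals mark the response element core, and in Ifi209 the 10 bases aligned with that of Ifi214. The stretches are chr1:173630739-173630858 (plus strand), chr1:173535958-173536077 (minus), chr1:173491319-173491438 (minus) and chr1:173420484-173420603 (plus).
Ifi209: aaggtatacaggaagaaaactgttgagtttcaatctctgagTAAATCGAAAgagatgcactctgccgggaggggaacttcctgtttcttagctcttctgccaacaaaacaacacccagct
Ifi214: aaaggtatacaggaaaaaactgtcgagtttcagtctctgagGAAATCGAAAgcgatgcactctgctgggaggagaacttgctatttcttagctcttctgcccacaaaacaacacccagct
Ifi206: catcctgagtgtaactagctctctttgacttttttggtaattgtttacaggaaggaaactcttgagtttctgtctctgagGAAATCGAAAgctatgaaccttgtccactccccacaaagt
Aim2: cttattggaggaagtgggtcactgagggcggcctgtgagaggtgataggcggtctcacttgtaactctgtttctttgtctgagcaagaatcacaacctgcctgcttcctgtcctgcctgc

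Over 250 bases the promoters of Ifi209 and Ifi214 were 94.4% identical. The core of Ifi214 and the bases of Ifi209 aligned with it both lie 79 to 70 bases before the start. There the Ifi209 sequence differs from that of Ifi214 by G1T, counted from 1 at the 5′ end of the 10 bases. By that letter Ifi209 is not counted among the matches. In the 250 bases before the start of Aim2 neither motif was found in full. Stretches 1 letter off the core were not searched for beyond Ifi209. The bases printed for Aim2 hold such a stretch on the other strand (tttctttgtc). Mndal, which has no signal value here, held GAAATCGAAA 36 to 27 bases before the first of its start sites.

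Aim2, the DNA receptor of the inflammasome, measured 6.93, 6.21 and 6.30 at 6 h in replicates 1 to 3, against 5.34, 5.49 and 5.80 in untreated skin. The 2 groups did not overlap, which held upward for 11.4% of all genes, and the highest 6 h value came from the library with high Glycam1. Its mean was 6.48 ± 0.39 at 6 h and 5.54 ± 0.24 in untreated skin (SD, n = 3 each), a log2 change of 0.94 with a 95% interval of 0.50 to 1.38 (limma adjusted p = 0.0144). Without the replicate 1 libraries of 1.5 h and 6 h the change was 0.71 (limma adjusted p = 0.0168). The call was lost without untreated replicate 1 (limma adjusted p = 0.0675).

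At 24 h Aim2 measured 6.34, 6.45 and 6.10, all above the untreated arrays, as in 10.9% of all genes. The log2 change of 0.75 had a 95% interval of 0.32 to 1.19 and missed the threshold (limma adjusted p = 0.0641). It passed without 1.5 h replicate 1 (limma adjusted p = 0.0418), without 6 h replicate 1 (0.0239) and without both (0.00684). At 1.5 h the values were 5.74, 5.15 and 5.26 and overlapped those of untreated skin, with a log2 change of -0.16 (95% interval -0.60 to 0.28, limma adjusted p = 0.731), and -0.34 without 1.5 h replicate 1. Ordered by mean, Aim2 ran from 6 h through 24 h and untreated skin to 1.5 h, and no neighbours in that order differed past the threshold.

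Ifi209, whose promoter is closely like that of Ifi214, had the largest rise of the members. It measured 9.58, 9.50 and 9.24 at 6 h, against 5.28, 5.20 and 5.73 in untreated skin. Every 6 h array stood more than 3 log2 units above every untreated one. The mean was 9.44 ± 0.18 at 6 h and 5.40 ± 0.29 in untreated skin (SD, n = 3 each), a 16.4-fold rise with a 95% interval of 10.1 to 26.6 (limma adjusted p = 1.93e-06). By log2 change at 6 h it ranked 23 of the 19938 genes. Its untreated mean of 5.40 lay below the array medians of 5.53 to 5.76, at low signal, where folds are less certain.

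At 24 h Ifi209 measured 8.60, 8.86 and 8.87, again apart from untreated skin, and was 10.3-fold higher (95% interval 6.39 to 16.8, limma adjusted p = 2.02e-05). All 24 h values lay below all 6 h values, but the difference of -0.66 between the 2 times did not pass (limma adjusted p = 0.264, 95% interval -1.36 to 0.03). At 1.5 h its arrays spread widely, at 6.11, 4.29 and 5.19, with the highest in the library with high Glycam1. The log2 change at 1.5 h was -0.21 (95% interval -0.91 to 0.48), and -0.67 without that library. By mean the order was 6 h, 24 h, untreated skin and 1.5 h, and of these neighbours only 24 h and untreated skin differed past the threshold.

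Zbp1, the Z nucleic acid receptor, lies on chromosome 2, away from the PYHIN cluster. It measured 10.77, 10.61 and 10.55 at 6 h, against 7.21, 7.12 and 7.48 in untreated skin. The groups lay far apart relative to their spread: the mean was 10.64 ± 0.11 at 6 h and 7.27 ± 0.19 in untreated skin (SD, n = 3 each). Zbp1 was 10.3-fold higher at 6 h (95% interval 7.34 to 14.6, limma adjusted p = 3.86e-07), and ranked 40 by log2 change.

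At 24 h Zbp1 measured 10.29, 10.58 and 10.25. It was 8.57-fold higher than in untreated skin (95% interval 6.09 to 12.1, limma adjusted p = 1.69e-06), and its values overlapped those of 6 h. At 1.5 h it measured 8.32, 7.30 and 7.24. The first of these, from the library with high Glycam1, stood above all untreated arrays, and the other 2 lay among them. The log2 change at 1.5 h was 0.35 (95% interval -0.15 to 0.84, limma adjusted p = 0.458), and -0.01 without that library. By mean the order was 6 h, 24 h, 1.5 h and untreated skin, and among neighbours only 24 h and 1.5 h differed past the threshold.

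Between the times, all 3 members were higher at 6 h than at 1.5 h, where 5.47% of all genes were called higher. The log2 differences were 1.10 for Aim2 (limma adjusted p = 0.0043), 4.25 for Ifi209 (1.51e-06) and 3.02 for Zbp1 (1.49e-06), and 1.05, 4.63 and 3.31 without replicate 1 of both times. All 3 were also higher at 24 h than at 1.5 h, with log2 differences of 0.91 (0.0259), 3.58 (1.62e-05) and 2.75 (8.36e-06), against 2.24% of all genes. The call of Aim2 at 24 h against 1.5 h was lost without 1.5 h replicate 2 or 3, or without 24 h replicate 1 or 2 (limma adjusted p up to 0.132). From 6 h to 24 h limma called 0 of the 3, against 3.44% of all genes in either direction, and 0 had an unadjusted p under 0.05. The 24 h minus 6 h difference was -0.19 for Aim2 (95% interval -0.62 to 0.25) and -0.27 for Zbp1 (-0.76 to 0.22). For Aim2 it was 0.04 without 6 h replicate 1. On the log2 scale, the change at 24 h was 92.0% of that at 6 h for Zbp1, 83.5% for Ifi209 and 80.0% for Aim2.

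The rises were compared between members on the same arrays, as the difference of their log2 changes. At 6 h Aim2 rose 3.10 log2 units less than Ifi209 and 2.43 less than Zbp1, and Ifi209 rose 0.67 more than Zbp1. In each pair, the values on 6 h arrays did not overlap those on untreated arrays. At 24 h the difference of Ifi209 minus Zbp1 was 0.27. Of 9 such comparisons (3 pairs at 3 times), 8 had a two-sided exact permutation p of 0.1, the smallest that 3 arrays against 3 allow, and adjusted p = 0.112. Probe sets differ in how they compress a change, so these differences are of signal and not of RNA.

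The genes most like each member were found by the root mean square difference over the 12 arrays, each gene taken relative to its own untreated mean, among 18612 genes after predicted genes and members were left out. Nearest to Zbp1 were Iigp1 (0.20 log2 units), Oas3 (0.25) and Phf11d (0.26). For Ifi209 they were Phf11a (0.38), Phf11d (0.40) and Slfn4 (0.42). Iigp1 changed by 0.12, 3.48 and 3.10 at 1.5 h, 6 h and 24 h, beside 0.35, 3.37 and 3.10 for Zbp1. Around Aim2, whose changes were smaller, lay Itga4 (0.17), Ikzf1 (0.21) and Serpina3n (0.22). Ifi209 and Zbp1 were 0.51 log2 units apart by the same measure, and Aim2 was 2.05 from Ifi209 and 1.72 from Zbp1.

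The wider PYHIN family moved with the members. All 8 other PYHIN genes rose at 6 h and at 24 h, against 3.38% and 2.55% of all genes. Their median log2 change was 2.57 at 6 h and 1.76 at 24 h, against -0.04 and 0.00 over all genes. With Aim2 and Ifi209, 10 of 10 measured PYHIN genes rose at 6 h and 9 of 10 at 24 h, Aim2 being the exception, and all 10 had arrays above every untreated array at both times. Both counts were 10 of 10 without the replicate 1 libraries of 1.5 h and 6 h. These genes are close copies of each other, and cross-hybridisation between their probe sets was not tested.

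**Figure D2:**
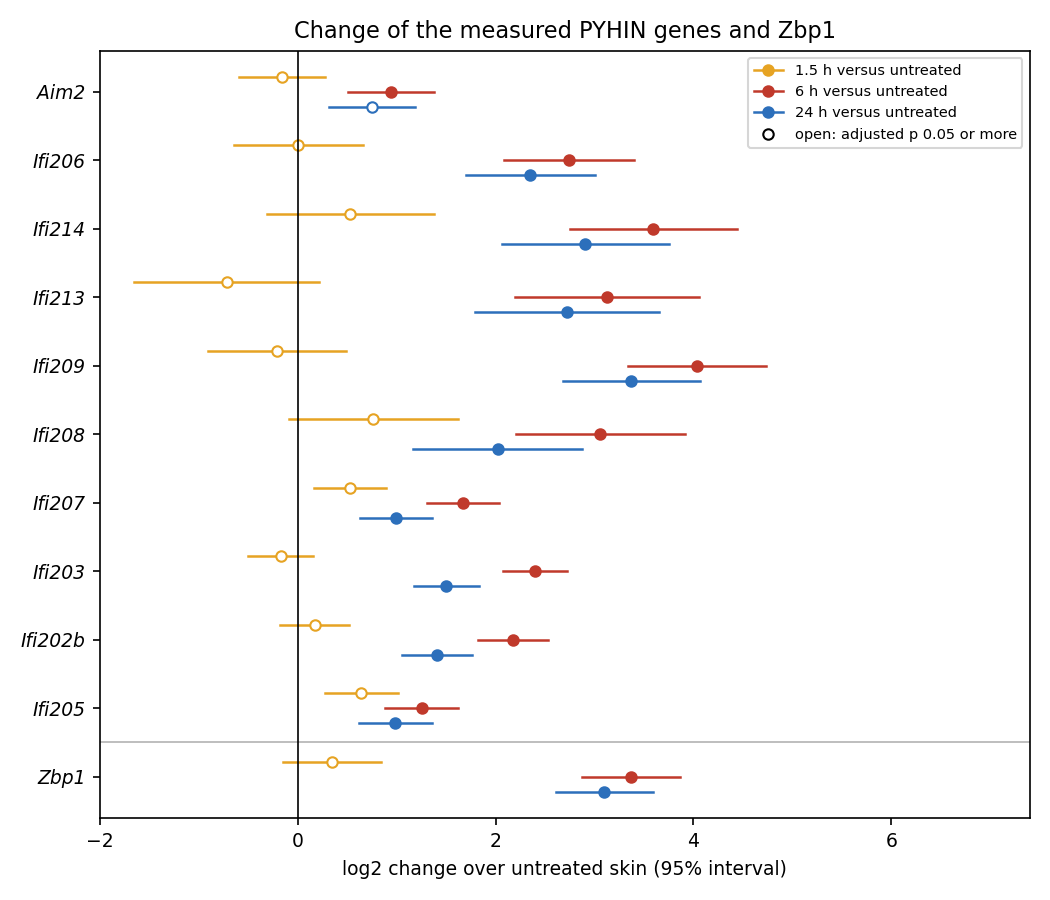
Log2 change over untreated skin (horizontal axis) of the 10 measured PYHIN genes and of Zbp1, at 1.5 h, 6 h and 24 h; lines are 95% intervals from limma and open circles did not pass an adjusted p of 0.05. At 6 h the PYHIN changes run from 0.94 (Aim2) to 4.04 (Ifi209), and at 1.5 h they lie between -0.72 and 0.76.

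Ifi214, Ifi213, Ifi208 and Ifi206 had low signal in untreated skin. Ifi214 averaged 6.83 ± 0.11 at 6 h and 6.14 ± 0.10 at 24 h, against 3.23 ± 0.59 in untreated skin (SD, n = 3 each), which is 12.1-fold and 7.50-fold higher (limma adjusted p = 4.62e-05 and 0.000481). Ifi213, Ifi208 and Ifi206 rose 8.75-, 8.32- and 6.69-fold at 6 h, and 6.58-, 7.01- and 4.93-fold without the replicate 1 libraries of 1.5 h and 6 h. At 24 h they stood 6.61-, 4.06- and 5.10-fold above untreated skin. The untreated means of these 4 genes, 3.23, 4.26, 3.22 and 3.27 in the order named, are near the bottom of the scale, where folds are least certain. With values under 5 raised to 5, the rise at 6 h was 3.55-fold for Ifi214, 5.22-fold for Ifi213, 2.41-fold for Ifi208 and 2.02-fold for Ifi206. At 24 h it was 2.21-, 3.94-, 1.25- and 1.54-fold. The calls of Ifi214 and Ifi213 held under that setting, and those of Ifi208 and Ifi206 were lost at 6 h (limma adjusted p = 0.0811 and 0.123) and at 24 h (0.878 and 0.448). The 24 h call of Ifi208 was also lost without 24 h replicate 2 (limma adjusted p = 0.0518).

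Ifi203, Ifi202b, Ifi207 and Ifi205 were well above the array medians in untreated skin, and all 4 rose at both times. Ifi203 averaged 10.57 ± 0.09 at 6 h and 9.68 ± 0.13 at 24 h, against 8.18 ± 0.09 in untreated skin (SD, n = 3 each), and rose 5.27- and 2.83-fold. Ifi202b, whose product lacks a pyrin domain and is known as an antagonist of AIM2, rose 4.52-fold at 6 h and 2.65-fold at 24 h. Ifi207 rose 3.19- and 1.99-fold, and Ifi205 rose 2.38- and 1.98-fold.

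Between 6 h and 24 h, all 10 PYHIN genes had a negative difference, from -1.04 to -0.19 log2 units, and 3 were called, against 1.41% of all genes called lower. These were Ifi203 (-0.90, limma adjusted p = 0.00761), Ifi202b (-0.77, 0.0249) and Ifi207 (-0.68, 0.0451). In 6 of the 10 the 24 h arrays lay below all 6 h arrays, as in 9.29% of all genes. Without 6 h replicate 1, the differences of Ifi206 and Ifi213 were 0.05 and 0.01. The call of Ifi202b was lost without 6 h replicate 2 or 3 or 24 h replicate 1 or 3 (limma adjusted p up to 0.113). That of Ifi207 was lost without any of 7 libraries, among them 6 h replicate 2 (limma adjusted p = 0.202).

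At 1.5 h limma called 0 of the 8 other PYHIN genes, against 0.612% of all genes called higher, and 2 had an unadjusted p under 0.05. Ifi205 had a log2 change of 0.64 (limma adjusted p = 0.0721, and 0.0223 without untreated replicate 3), and Ifi207 one of 0.53 (0.124). Among the 1.5 h arrays, replicate 1 was the highest for 9 of the 10 PYHIN genes and for all 3 members. Without it, the 1.5 h changes of Ifi202b and Ifi214 were -0.02 and -0.06, beside 0.17 and 0.53 with it.

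Genes that act with these sensors, or in related routes, were followed from lists drawn up by role, with earlier results of these data known. In the STING pathway, through which cytosolic DNA induces interferon, 6 of 10 measured genes rose at 6 h and 3 at 24 h. Of all genes, 3.38% and 2.55% were called higher at these times. The median log2 changes of the pathway were 0.58 and 0.21. Sting1, the adaptor itself, rose 2.29-fold at 6 h and 1.98-fold at 24 h (limma adjusted p = 0.00203 and 0.012). The 24 h call of Sting1 was lost without untreated replicate 1, untreated replicate 2 or 24 h replicate 2 (limma adjusted p up to 0.0628). Cgas, the enzyme that makes its ligand from DNA, was 1.40-fold higher at 6 h (limma adjusted p = 0.0342). That call was lost without any 6 h library, without untreated replicate 2 or 3, and under quantile normalization or cyclic loess (limma adjusted p up to 0.132). With values under 5 raised to 5, its log2 change at 6 h was 0.10 (limma adjusted p = 0.409). Irf7, a transcription factor of interferon genes, rose 9.99- and 13.1-fold at 6 h and 24 h, and Trim56, a ubiquitin ligase, rose 1.99-fold at 6 h and measured a log2 change of 0.10 at 24 h (limma adjusted p = 0.819).

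Other proteins described as DNA sensors moved little. Of 14 measured, 1 rose and 1 fell at 6 h (3.38% of all genes rose and 2.71% fell). At 24 h 1 rose (2.55% of all genes). The median log2 change was -0.06 at 6 h and -0.02 at 24 h. Tlr9, the endosomal receptor of CpG DNA, rose 3.11- and 3.63-fold (limma adjusted p = 0.000159 and 6.52e-05). Rad50, a subunit of a DNA break repair complex, fell by 0.49 on the log2 scale at 6 h (limma adjusted p = 0.0107, and 0.0574 without untreated replicate 1). Hmgb1, a chromatin protein, measured a log2 change of -0.64 at 6 h (limma adjusted p = 0.0705). It passed without 6 h replicate 1 (-0.78, limma adjusted p = 0.0419), without 24 h replicate 3 (0.0436), with array weights (0.0349) and with the filter on dim genes (0.0488).

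Of 10 genes that clear or edit nucleic acid, 3 rose at 6 h and 4 at 24 h, against 3.38% and 2.55% of all genes. Their median log2 changes were -0.17 and -0.04. With each library left out in turn, the count at 24 h ran from 3 to 4. Samhd1, which cuts deoxynucleotides, rose 3.84- and 2.60-fold at 6 h and 24 h. Adar, which edits double-stranded RNA and carries a Z-alpha domain as ZBP1 does, rose 3.37- and 2.09-fold. Trex1, the main DNA exonuclease of the cytosol, rose 3.16- and 2.27-fold, and 1.40-fold at 1.5 h (limma adjusted p = 0.0241). The 1.5 h call of Trex1 was lost when either untreated replicate 2 or 3, or 1.5 h replicate 1 or 2, was left out (limma adjusted p up to 0.101).

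Of 12 measured inflammasome genes, 6 rose at 6 h and 6 at 24 h, against 3.38% and 2.55% of all genes. Not all of the 12 act downstream of AIM2, Casp4 being among those that do not. The median log2 changes of the list were 0.63 and 0.70. With each library left out in turn, the count at 24 h ran from 4 to 8. Casp1, the protease that AIM2 activates, was 1.89-fold higher at 6 h (limma adjusted p = 0.00819) and 1.68-fold higher at 24 h (0.0376). The 24 h call was lost without each untreated library, without 24 h replicate 2 or 3 and with the replicate number as a block (limma adjusted p up to 0.16). Casp4, which responds to cytosolic lipopolysaccharide, rose 3.98- and 2.43-fold, Gsdmd, the pore former, 2.07- and 2.21-fold, and Il1b, the cytokine, 2.24- and 2.18-fold. Pycard, which encodes ASC, the link between AIM2 and caspase-1, had log2 changes of -0.08 at 6 h (95% interval -0.47 to 0.32) and 0.29 at 24 h (-0.11 to 0.68).

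In a list of 8 measured genes around ZBP1 in cell death, not all of them its partners, 4 rose at 6 h and 2 at 24 h. Of all genes, 3.38% and 2.55% were called higher. The median log2 changes of the list were 0.36 and 0.39. Mlkl, which breaks the plasma membrane in necroptosis, rose 7.97- and 5.63-fold (limma adjusted p = 5.38e-07 and 6.04e-06). Casp8, a protease of apoptosis that also sits on the inflammasome list, rose 1.74-fold at both times, and Tnfaip3, a ubiquitin-editing brake on this signalling, rose 2.89-fold at 6 h. Ripk3, the kinase between ZBP1 and MLKL, had log2 changes of 0.10 at 6 h (95% interval -0.25 to 0.45) and 0.63 at 24 h (limma adjusted p = 0.0528). Its 24 h change passed without 1.5 h replicate 1 (limma adjusted p = 0.00913), without 1.5 h replicate 3 (0.0397) and without 6 h replicate 1 (0.0457).

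Of 11 genes of interferon receptor signalling, 5 rose at 6 h and 5 at 24 h, against 3.38% and 2.55% of all genes. Their median log2 changes were 0.30 and 0.33. The count at 24 h was 3 without untreated replicate 2. Stat2 and Irf9, subunits of the factor that binds the response element above, rose 5.23- and 2.28-fold at 6 h and 3.50- and 1.96-fold at 24 h. Irf1 rose 1.84-fold at 1.5 h, where it was the 1 called gene of this list (limma adjusted p = 0.00552, and 0.0515 without moderation of the variance), 4.62-fold at 6 h and 2.47-fold at 24 h. At 1.5 h limma called 0 genes of the STING, DNA sensor, inflammasome and ZBP1 lists, with 2, 4, 1 and 1 at an unadjusted p under 0.05. Of all genes, 2.2% were called at 1.5 h in either direction. Without 24 h replicate 3, 1 gene of the DNA sensor list and 2 of the interferon signalling list were called at 1.5 h.

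**Figure D3:**
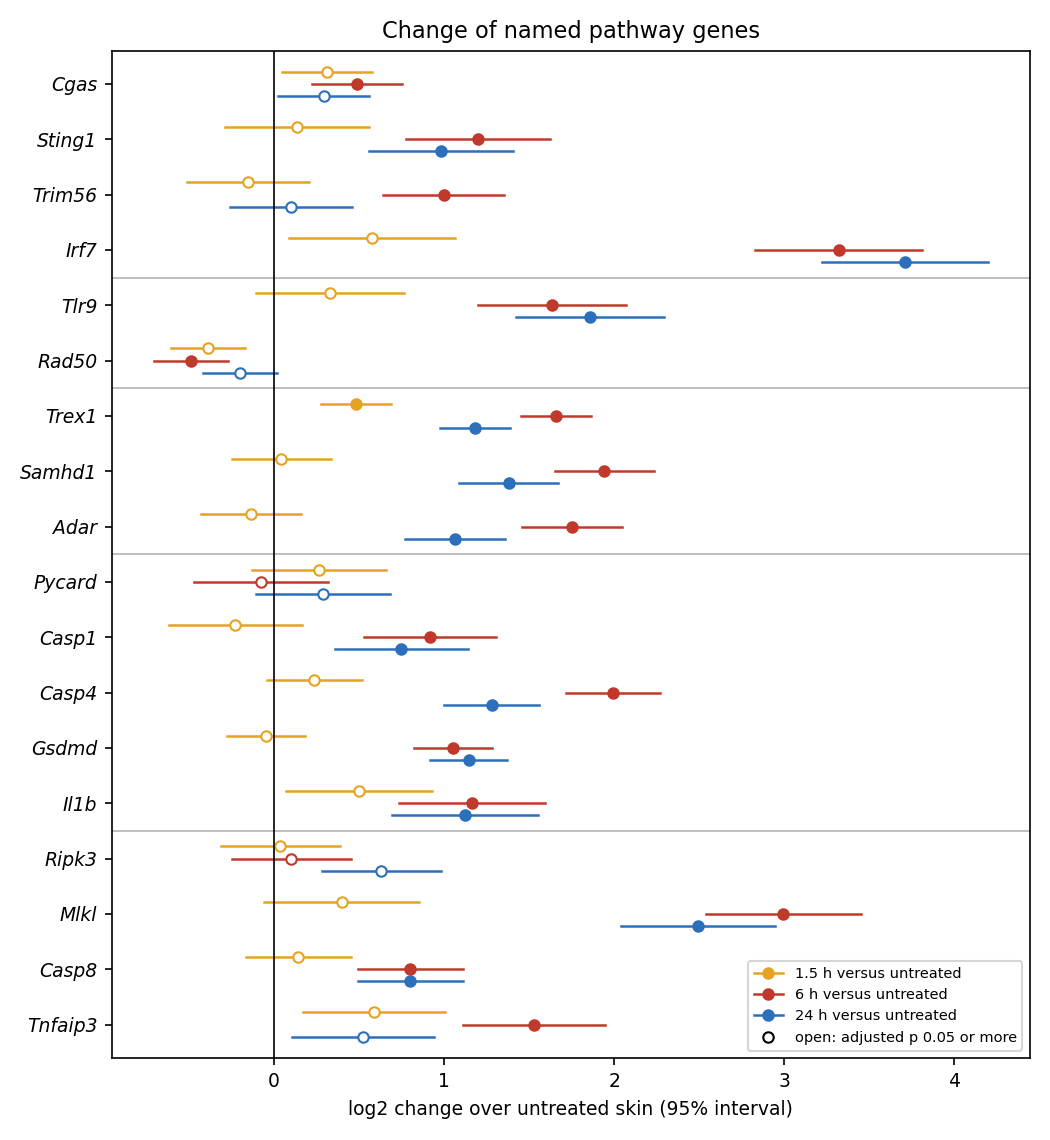
Log2 change over untreated skin (horizontal axis) of 18 named pathway genes at 1.5 h, 6 h and 24 h; lines are 95% intervals from limma, open circles did not pass an adjusted p of 0.05, and rules separate the STING, DNA sensor, clearance, inflammasome and ZBP1 lists. Mlkl and Irf7 stand above 2 log2 units at 6 h and 24 h, and the 6 h intervals of Pycard and Ripk3 span 0.

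Some markers of immune cells moved with the times as well, and others in the same lists did not. At 1.5 h, 3 of 8 neutrophil markers and 1 of 10 monocyte and macrophage markers rose, against 0.612% of all genes called higher. Of 8 T and NK cell markers 0 were called at 1.5 h, with 0 at an unadjusted p under 0.05. At 24 h, 3 of 10 monocyte and macrophage markers, 2 of 8 T and NK cell markers and 2 of 8 neutrophil markers rose (2.55% of all genes). At 6 h 1 of each list rose (3.38% of all genes) and 1 macrophage marker fell (2.71%). The mean signal of the macrophage list was 8.52 to 9.15 at 6 h and 9.0 to 9.35 at 24 h, against 8.28 to 8.82 in untreated skin. That of the T and NK cell list was 5.65 to 6.36 at 6 h and 6.25 to 6.53 at 24 h, against 5.31 to 5.36, and that of neutrophils 6.38 to 7.13 at 1.5 h, 6.20 to 6.65 at 6 h and 6.37 to 6.60 at 24 h, against 5.81 to 6.19. At 1.5 h the macrophage list was at 8.59 to 9.01 and the T and NK cell list at 5.35 to 6.11. Genes within a list differed. At 24 h log2 changes in the T and NK cell list ran from -0.05 (Cd3e) to 4.94 (Gzmb), with a median of 0.47. In the macrophage list they ran from -0.70 (Cd163) to 3.16 (Fcgr1), with a median of 0.37. Limma called 0 of 8 dendritic cell markers at 6 h and at 24 h, with 0 at an unadjusted p under 0.05. The B cell and lymph node vessel list averaged 7.03 on 1.5 h replicate 1 and 6.66 on 6 h replicate 1. Glandular epithelium markers averaged 7.54 to 8.80 at 1.5 h and 7.39 to 7.94 at 24 h, against 5.53 to 5.77 in untreated skin. At 6 h they were at 8.47 in replicate 1, and at 5.54 and 5.41 in replicates 2 and 3, near the untreated level. Keratinocyte markers averaged 10.99 to 11.20 at 6 h and 10.97 to 11.08 at 24 h, against 11.26 to 11.30. Skeletal muscle markers averaged 11.10 to 12.27 at 1.5 h, 10.76 to 11.43 at 6 h and 10.71 to 12.24 at 24 h, against 11.02 to 11.11. At 1.5 h their 2 highest arrays were replicates 1 and 2, and at 24 h replicate 1 was the highest. The part of cell content in the rise of the sensor genes was not tested. The 6 h rises of Ifi209 and Zbp1 were 15.6- and 9.90-fold without the replicate 1 libraries of 1.5 h and 6 h.

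**Figure D4:**
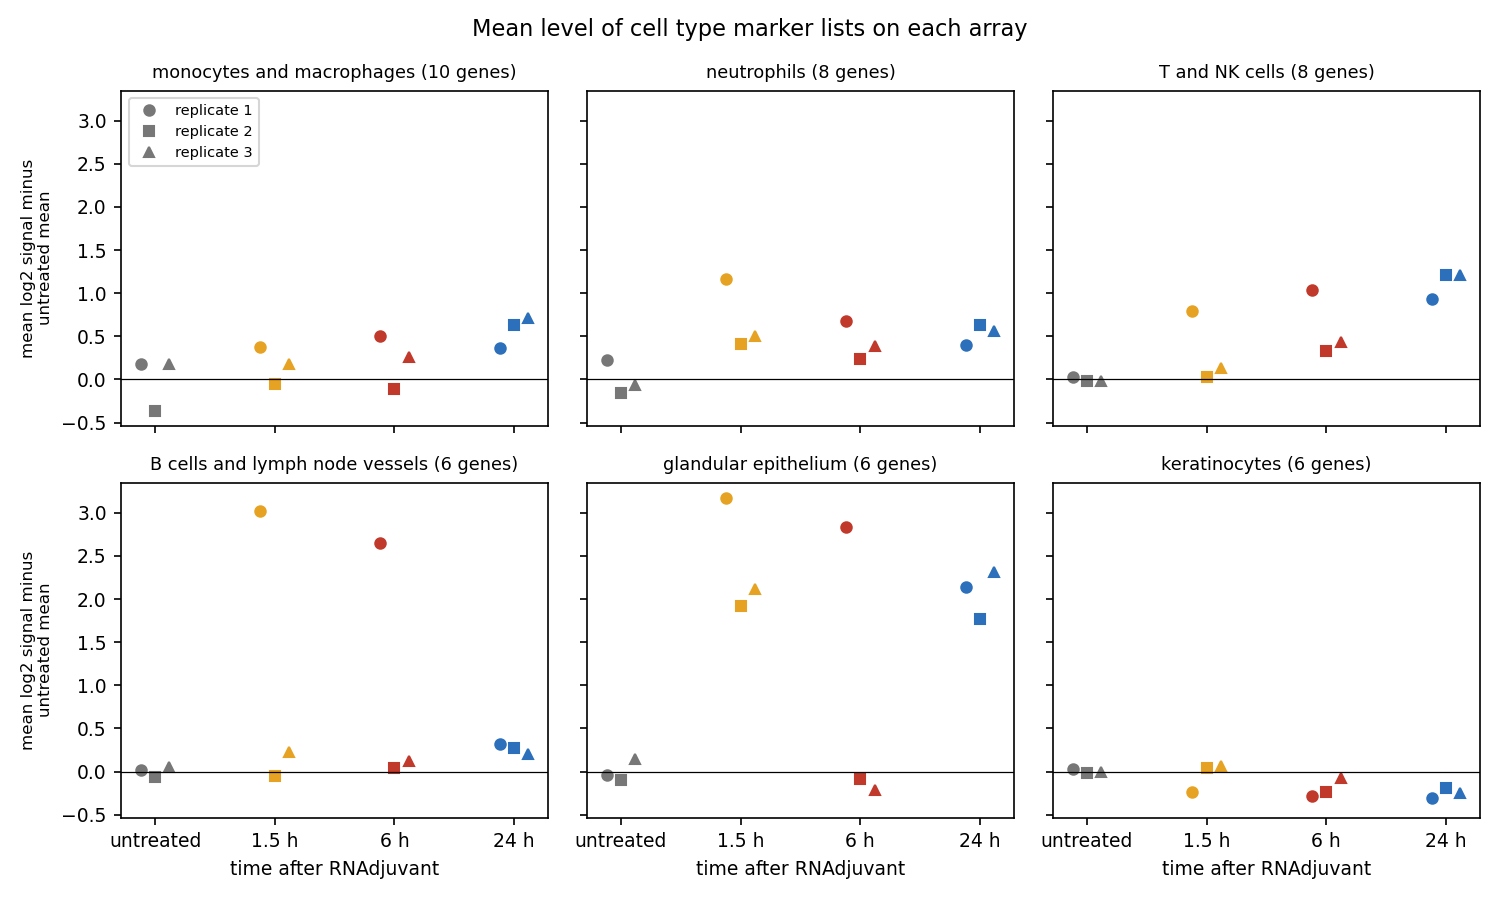
Mean log2 signal of 6 marker lists on each array, minus the mean of the untreated arrays (vertical axis), by group, with the replicate number by shape. Replicate 1 at 1.5 h and at 6 h stands 3.02 and 2.65 above untreated skin in the B cell and lymph node vessel list, and every 24 h array lies above the untreated arrays in the T and NK cell list.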

How the data were processed

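The deposited table holds log2 values that the authors made with RMA, using Expression Console 1.1 from Affymetrix per the submitters' processing notes, for 35556 probe sets on 12 arrays of biotin-labelled cDNA. It was used as deposited. GEO's platform annotation gave 21789 probe sets 1 gene symbol and 1621 several, and 12146 were not listed. No gene was named from several symbols, and the brightest probe set was kept for each of 19938 genes. Gene IDs of 21698 probe sets were found in the RefSeq table, which changed 0 symbols.

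All 12 arrays were fitted as 4 groups with limma 3.58.1 in R 4.3.3 (8 residual and 5.24 prior degrees of freedom), and 6 contrasts were tested, two-sided, at an adjusted p of 0.05 over all genes. Log2 changes were taken as treated minus untreated means, or later minus earlier. The steps were tested on simulated data. Values are mean ± SD of 3 arrays, and intervals are 95%.

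The members and gene lists were chosen with earlier results of these data known. Named genes are the members, all measured PYHIN genes, the 3 largest 6 h changes of each other list with the largest called the other way, and Pycard, Casp1, Ripk3, Mlkl, Cgas and Sting1. The macrophage and T and NK cell lists are also described by their lowest and highest 24 h changes. The alternatives were the replicate block, libraries left out, other variance models, scalings, filters, probe set rules and thresholds.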

Additional observations from a re-analysis of the deposited data

Results flagged for a closer look

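The change over untreated skin was tested for a difference between neighbouring times, for the members and the other PYHIN genes, and these passed at an adjusted p under 0.05 in limma. These are the same contrasts between times as given above. From 1.5 h to 6 h the log2 change grew in all 11 of these genes, against 5.47% of all genes called higher. It grew by 1.10 for Aim2, 4.25 for Ifi209 and 3.02 for Zbp1. For the other PYHIN genes it grew by 3.85 for Ifi213, 3.06 for Ifi214, 2.74 for Ifi206, 2.57 for Ifi203, 2.30 for Ifi208, 2.01 for Ifi202b, 1.14 for Ifi207 and 0.61 for Ifi205. The call of Ifi205 was lost without 1.5 h replicate 2 or 3 or any 6 h library (limma adjusted p up to 0.106). With values under 5 raised to 5, growth was 2.39 for Ifi213 and 1.83 for Ifi214, and both still passed. Under that setting the calls of Ifi208 (1.27, limma adjusted p = 0.0577), Ifi206 (1.02, 0.0877) and Ifi205 (0.61, 0.0797) were lost. From 6 h to 24 h the change was smaller for Ifi203 by -0.90, for Ifi202b by -0.77 and for Ifi207 by -0.68. Of all genes, 1.41% were called lower at 24 h than at 6 h. Single outlying arrays were not tested for, since each group has 3.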

How the results depend on the processing

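Under all 27 alternatives Ifi209 and Zbp1 kept their calls and directions at 6 h and 24 h, and no called change of a member reversed. The calls that moved were those of Aim2. Its 6 h change of 0.94 did not pass without moderation of the variance (adjusted p = 0.0694), with values under 5 raised to 5 (0.0583), at an adjusted p of 0.01 or at a 2-fold minimum. Its difference of 0.91 between 24 h and 1.5 h did not pass under the same 4 settings (0.121 without moderation, 0.103 with the floor). Its 24 h change passed at 0.75 with 1.5 h and 6 h replicate 1 left out together (0.00684), with the filter on dim genes (0.0463) or with only the 2 groups compared (0.0222). It also passed at 0.77 with array weights (0.0347) and 0.81 after centring each array on its median (0.0444). With each library left out in turn, the Aim2 change ran from 0.71 to 1.07 at 6 h and from 0.65 to 0.88 at 24 h.

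With the replicate number as a block, Aim2 kept its 6 h call (adjusted p = 0.0161), and Ifi207 lost its fall from 6 h to 24 h (0.0536). Whether the numbers pair the arrays cannot be settled from the values. Of 18 same-numbered pairs, 4 had deviations correlated above 0.1, and 5 of 12 arrays matched their own number best. The highest correlation, 0.33, was between replicate 1 of 1.5 h and of 6 h, the libraries with high Glycam1. With each library left out in turn, the count of all genes called ran from 97 to 597 at 1.5 h (439 with all), 712 to 1364 at 6 h (1215) and 423 to 756 at 24 h (670). It ran from 949 to 2951 for 6 h against 1.5 h (2646), 142 to 877 for 24 h against 6 h (685) and 321 to 653 for 24 h against 1.5 h (580). The other alternatives gave 41 to 696, 325 to 1703, 292 to 866, 395 to 4609, 135 to 1133 and 232 to 753 in the same order. Of the genes called at 1.5 h, 27.8% were higher. This share of the called genes was 56.9% after median centring, 43.2% after quantile normalization and 34.7% after cyclic loess. At 6 h cyclic loess gave 69.4% for 55.5%. For 6 h against 1.5 h centring gave 16.5% and loess 55.0%, for 41.2%, and for 24 h against 6 h they gave 80.2% and 44.0%, for 59.0%. Centring moved the median of all genes at 1.5 h to 0.12. The causes were not tested.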
